A study of Rattus norvegicus with 6 samples.

Results

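The aryl hydrocarbon receptor (AHR) and its classical target genes were examined in RNA-seq data of rat neonatal cardiomyocytes. The set held 9 genes, taken by gene name from a table of 43035 rows: Ahr and Arnt for the receptor and its partner, Ahrr and Tiparp for feedback, and Cyp1a1, Cyp1a2, Cyp1b1, Nqo1 and Aldh3a1 for the enzymes. The table also lists 10152 unannotated rows, transcripts with no gene name of their own that may lie over a named gene, and 5 of them overlap a member on the same strand, so that the set took up 14 rows. The genes were chosen from their difference between the groups compared here, so their levels, differences and intervals are a description. Where the fit of all features counts them as called, that count follows from the choice and is no test of them.

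Primary cardiomyocytes from Sprague-Dawley rats, of postnatal day 1 in the labels, were grown in medium with 10% serum and transfected either with scramble siRNA (si-NC) or with siRNA against DYRK1A, a protein kinase (si-DYRK1A). All cells were collected 48 h later, and each group had 3 libraries, which the labels call biological replicates without naming litters. The libraries held 10325074 to 11921772 counts, of which 17.16% to 17.53% lay in unannotated rows. Levels are given as CPM, the share of a library that falls on a row after TMM scaling, or, between genes, as the deposited FPKM, which also divides by gene length.

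AHR is a ligand-activated transcription factor of the bHLH-PAS family. It waits in the cytoplasm with HSP90, binds flat aromatic compounds and some tryptophan metabolites, moves to the nucleus, pairs with ARNT and reads a short DNA element whose core is GCGTG. Its targets include the CYP1 monooxygenases, which oxidise such compounds, and its own repressors, AHRR, which competes for ARNT, and TIPARP, an ADP-ribosyltransferase that marks AHR.

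The promoters of the members were read for this core because it is the element that AHR and ARNT read. RefSeq promoters (GRCr8, 250 bases before to 50 after the start) were matched for 7 of the 9 members, and 5 of these held 8 cores in all. Each core is shown with 12 bases on either side in the direction of the gene, with the core in capitals as GCGTG or, where it lies on the opposite strand, as CACGC.
Ahrr, chr1:30822065-30822093, plus strand: tattcaaagggcGCGTGgcaggcagggat
Ahrr, chr1:30822090-30822118, plus strand: ggatcaggatgtGCGTGcgccccctgccg
Ahrr, chr1:30822150-30822178, plus strand: gcagggccgctcGCGTGctggggtggggc
Cyp1b1, chr6:21094472-21094500, plus strand: cgtcccgcccctCACGCcccaccccttaa
Cyp1b1, chr6:21094533-21094561, plus strand: agtagagggatgGCGTGtcgcctctgggg
Tiparp, chr2:152063621-152063649, plus strand: ctctgtcaggcgCACGCgcacgggaggcg
Nqo1, chr19:52220261-52220289, minus strand: cctaggctgtggCACGCaggatctttccg
Arnt, chr2:185686649-185686677, plus strand: ccatggtatgggGCGTGtcttctccccca

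Ahrr held 3 cores, whose first bases lay at -142, -117 and -57 from the start. Cyp1b1 held 2, at -81 and -20, and Tiparp, Nqo1 and Arnt held 1 each, at -136, -10 and -42. The windows of Ahr and Cyp1a2 held none. At least 1 core was present in 29.7% of 33469 RefSeq promoters, at least 2 in 10.2% and at least 3 in 3.59%. The core is rich in G and C, and so are the windows of Ahrr (63.3% GC), Cyp1b1 (60.7%), Tiparp (72.7%) and Nqo1 (56.3%). Among the 13283 promoters with at least 55% GC, 51.5% held 1 or more cores, 21.5% held 2 or more and 8.02% held 3 or more. The window of Ahr, which held none, was at 74.7% GC. Factors that respond to hypoxia can read the same 5 letters, and a match in sequence does not show binding. Sites outside these windows were not searched, so a window with no core does not show that a gene lacks one.

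**Figure D1:**
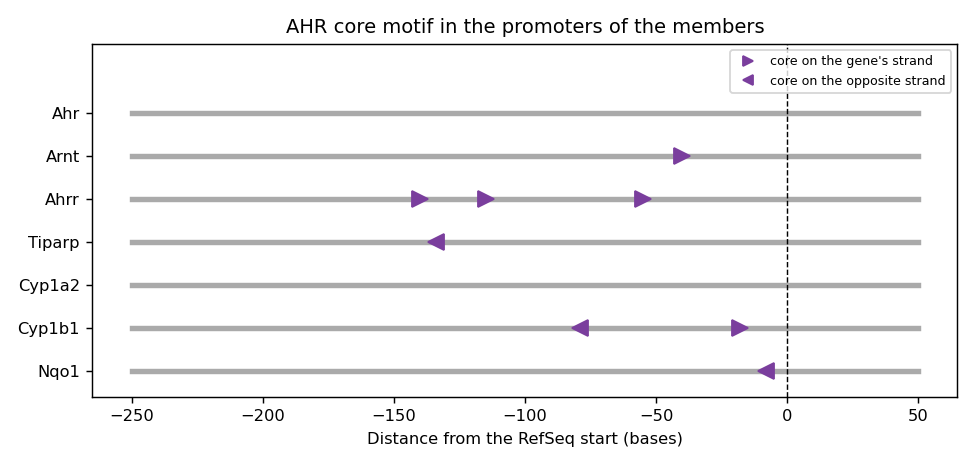
Positions of the core GCGTG (both strands) in the RefSeq promoters of 7 members. The horizontal axis is the distance from the RefSeq start in bases, grey lines are the windows searched, and the direction of a triangle gives the strand of the core. Ahrr has 3 cores upstream of its start, Cyp1b1 has 2, and Ahr and Cyp1a2 have none.

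The level of the targeted gene did not separate the groups. The annotated Dyrk1a row held 7 counts over the 6 libraries, and the reads lay in an unannotated row that spans the whole gene. That row stood at 74.5, 77.7 and 80.9 CPM in the si-NC libraries and at 85.4, 80.1 and 81.7 CPM in the libraries labelled si-DYRK1A. Its log2 fold change was 0.08 with a 95% interval from -0.04 to 0.20 (adjusted p = 0.374, edgeR quasi-likelihood test). The knockdown was therefore not visible in these counts, and every direction below is that of the libraries labelled si-DYRK1A against those labelled si-NC.

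Among the 5 members with enough counts to enter the fit, Ahrr, Tiparp, Cyp1b1 and Nqo1 separated the groups, each library labelled si-DYRK1A being higher than each si-NC library, whereas the levels of Ahr overlapped. In the fit of all features, a feature was called where its p, adjusted over the 15513 features that passed the filter on low counts, was below 0.05. Of all features tested, 8.03% were called higher and 7.19% were called lower, and in 16.2% every si-DYRK1A library lay above every si-NC library. The fit counted these 4 members as called higher, and all 4 had such separated groups. The members had been chosen for this difference, so nothing is read from these counts. The median log2 fold change was 0.62 over the 5 members tested, a value that also follows from the choice. Over all features tested it was 0.002. Cyp1a1, Cyp1a2, Aldh3a1 and the annotated row of Arnt did not pass the filter.

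**Figure D2:**
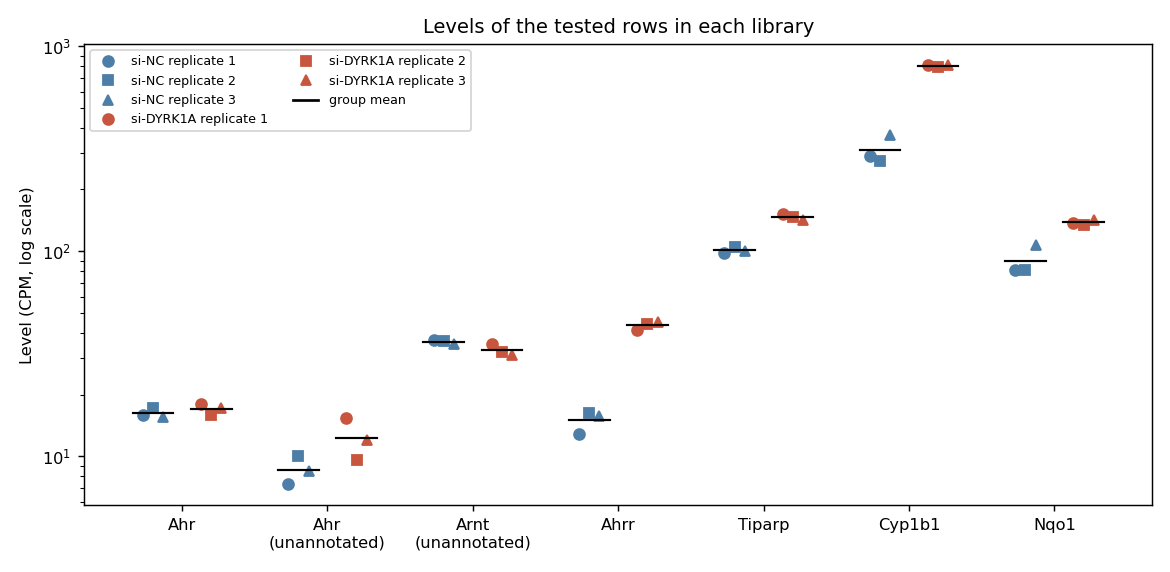
Levels of the 5 tested members and of the unannotated rows over Ahr and Arnt in each library. The vertical axis is CPM on a log scale, marker shapes are replicates, and black bars are group means. The si-DYRK1A libraries lie above all si-NC libraries for Ahrr, Tiparp, Cyp1b1 and Nqo1, and the groups overlap for Ahr and for both unannotated rows.

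The receptor was present at a low level in every library. Ahr (ENSRNOG00000004342, Rnor_6.0 chr6:54963990-55001464, minus strand) stood at 15.9, 17.2 and 15.5 CPM in the si-NC libraries and at 18.0, 15.8 and 17.2 CPM in the si-DYRK1A libraries. The groups overlapped, with a log2 fold change of 0.07 and a 95% interval from -0.15 to 0.30. Per length, the level was 3.13 ± 0.177 FPKM in si-NC and 3.28 ± 0.213 FPKM in si-DYRK1A (SD, n = 3).

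A second row gave a different value for the same locus. An unannotated row (chr6:54963996-54980194, minus strand) covers 43.23% of Ahr at its 3′ end and overlaps no other annotated gene. It stood at 7.29, 9.98 and 8.45 CPM in si-NC and at 15.4, 9.61 and 11.9 CPM in the si-DYRK1A libraries. The groups overlapped, since si-DYRK1A replicate 2 lay below si-NC replicate 2. The log2 fold change was 0.52 (SE 0.169). Replicate 1 of si-DYRK1A was the highest library, and the log2 fold change without it was 0.33. With the counts of both rows summed, Ahr stood at 23.2 to 27.2 CPM in si-NC and at 25.4 to 33.4 CPM in the si-DYRK1A libraries. The summed log2 fold change was 0.24 (SE 0.102), with a 95% interval from 0.03 to 0.46 that is not adjusted for the number of features. The groups overlapped in the sum too, and the fit did not count it as called.

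ARNT, the partner that AHR needs to bind DNA, was measured only through an unannotated row. The annotated Arnt row (ENSRNOG00000031174, chr2:196594303-196651179, plus strand) was listed at 0 in all 6 libraries. An unannotated row (chr2:196594176-196653768, plus strand) spans all of it and held 2344 counts. This row stood at 36.8, 36.5 and 35.2 CPM in si-NC and at 35.4, 32.3 and 31.3 CPM in the si-DYRK1A libraries. The difference was small and the groups overlapped, with a log2 fold change of -0.13 and a 95% interval from -0.30 to 0.03. Per length, this Arnt row (6.88 ± 0.161 FPKM in si-NC, SD, n = 3) was at a higher level than the annotated Ahr row in every library.

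**Figure D3:**
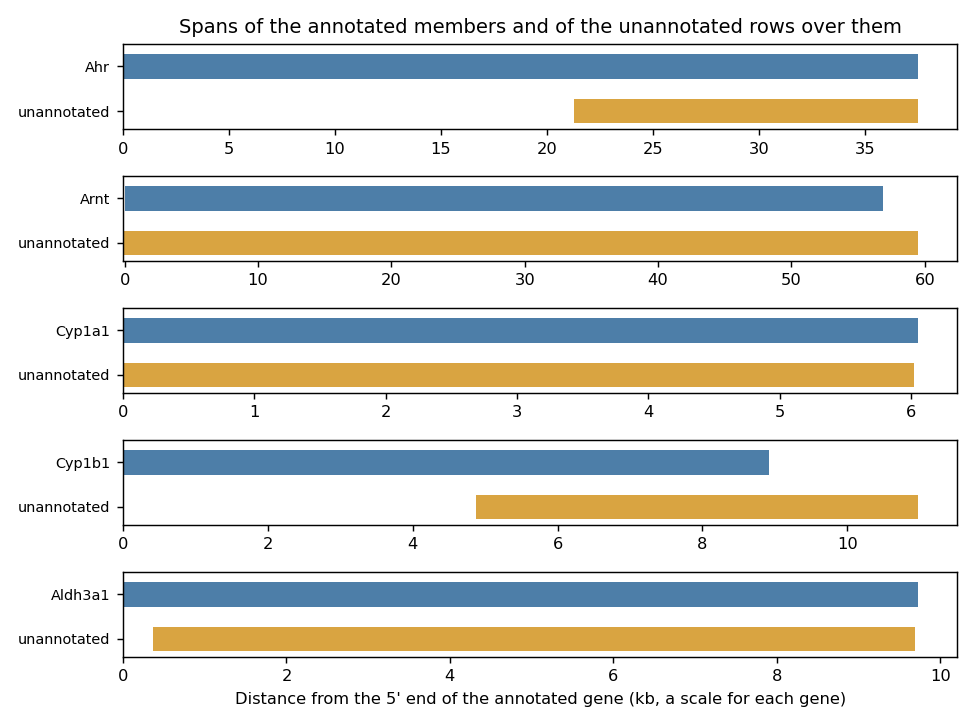
Spans of the 5 members that share their strand with an unannotated row (blue, annotated gene; yellow, unannotated row). The horizontal axis is the distance in kb from the 5′ end of the annotated gene, with its own scale for each gene. The unannotated rows span all of Arnt, 99.52% of Cyp1a1 and 95.88% of Aldh3a1, but 43.23% of Ahr and 45.26% of Cyp1b1.

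The feedback repressors were both higher in the libraries labelled si-DYRK1A. Ahrr, which takes ARNT away from AHR (ENSRNOG00000014721, chr1:31603297-31698329, plus strand), stood at 12.9, 16.3 and 15.8 CPM in si-NC and at 41.2, 44.4 and 45.0 CPM in the si-DYRK1A libraries. The lowest si-DYRK1A library was above the highest si-NC library by far more than the spread within either group. The group means were 15.0 ± 1.87 and 43.5 ± 2.06 CPM (SD, n = 3), a 2.9-fold difference in CPM and a log2 fold change of 1.53 with a 95% interval from 1.33 to 1.73. In si-NC, Ahrr and the annotated row of Ahr were at nearly the same level per length, at 3.17 ± 0.406 and 3.13 ± 0.177 FPKM. In the si-DYRK1A libraries, Ahrr reached 8.68 to 9.49 FPKM while the annotated Ahr row stayed between 3.05 and 3.47 FPKM. The unannotated row over Ahr, left out of this comparison, was at 1.10 ± 0.177 FPKM in si-NC and 1.58 ± 0.373 FPKM in si-DYRK1A.

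Tiparp (ENSRNOG00000011238, chr2:157316266-157341469, plus strand) stood at 97.6, 105 and 99.8 CPM in si-NC and at 152, 147 and 143 CPM in the si-DYRK1A libraries. The groups were separated and both were tight. The log2 fold change was 0.54 (SE 0.0508), a 1.46-fold difference in CPM, and no left-out library moved it below 0.52 or above 0.57. Per length, Tiparp was at 42.6 ± 1.80 FPKM in si-NC and at 61.9 ± 2.00 FPKM in the si-DYRK1A libraries (SD, n = 3).

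Among the enzymes, Cyp1b1, the CYP1 member found mainly outside the liver, and Nqo1 had the highest levels per length of all members, followed by Tiparp. Cyp1b1 (ENSRNOG00000040287, chr6:2307808-2316722, minus strand) stood at 291, 274 and 371 CPM in si-NC and at 806, 792 and 809 CPM in the si-DYRK1A libraries. The 3 si-DYRK1A libraries were close together, and si-NC replicate 3 was the high library of its group. The log2 fold change was 1.36 (SE 0.127), a 2.57-fold difference in CPM, and it was 1.50 without si-NC replicate 3. Per length, Cyp1b1 rose from 56.4 ± 9.28 to 145 ± 1.50 FPKM (SD, n = 3). The unannotated row over its 3′ part held 4 counts in all.

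Nqo1 encodes a quinone reductase that both AHR and the oxidative stress factor NRF2 are known to induce. Nqo1 (ENSRNOG00000012772, chr19:38422164-38437180, plus strand) stood at 81.1, 81.4 and 107 CPM in si-NC and at 138, 135 and 143 CPM in the si-DYRK1A libraries. As for Cyp1b1, si-NC replicate 3 was the highest si-NC library, a pattern that Ahrr and Tiparp did not share. The log2 fold change was 0.62 (SE 0.113), a 1.54-fold difference in CPM, and it was 0.76 without si-NC replicate 3. The fit no longer counted Nqo1 as called when si-DYRK1A replicate 1 or 3 was left out, at log2 fold changes of 0.62 and 0.60. In si-NC, Nqo1 and Cyp1b1 did not differ in level per length beyond their spread (56.6 ± 9.45 and 56.4 ± 9.28 FPKM, SD, n = 3), whereas in the si-DYRK1A libraries Cyp1b1 was above Nqo1 in each library.

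**Figure D4:**
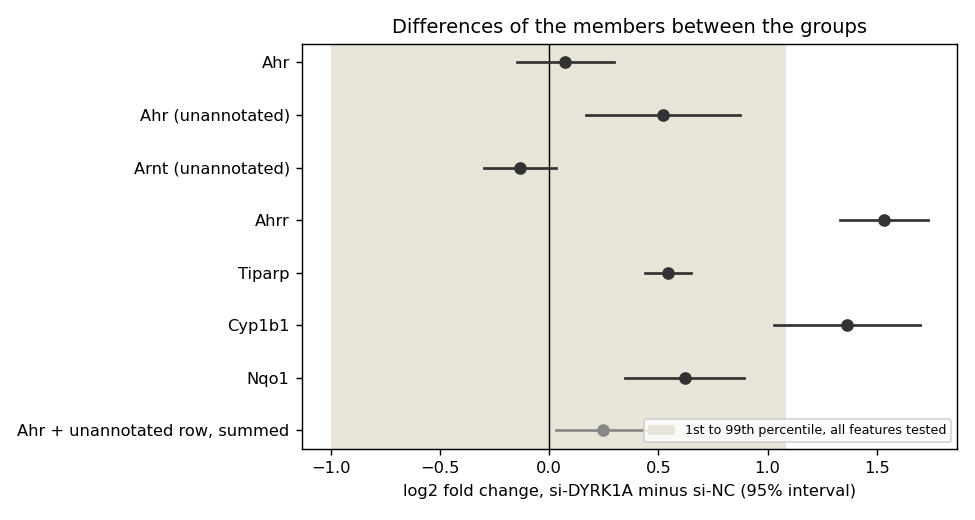
Log2 fold change (si-DYRK1A minus si-NC) of the tested members and unannotated rows. Points are estimates of the edgeR fit and lines are 95% intervals, and the grey point sums the annotated and unannotated rows of Ahr. The shaded band, from -0.99 to 1.08, leaves out 1% of all features tested at either end. Ahrr (1.53) and Cyp1b1 (1.36) lie outside the band, and the others lie within it.

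The other CYP1 enzymes and Aldh3a1, an aldehyde dehydrogenase of the classical AHR battery, gave almost no counts. Cyp1a1 (ENSRNOG00000019500, chr8:62472095-62478147, plus strand) was listed at 0 in all 6 libraries, and so was the unannotated row that covers 99.52% of it. Cyp1a2 (ENSRNOG00000016173, chr8:62451329-62458301, minus strand) held 1 count, in si-DYRK1A replicate 3. Aldh3a1 (ENSRNOG00000002331, chr10:47490153-47499876, plus strand) held 3 counts in si-NC replicate 3 and 1 in si-DYRK1A replicate 2, and the unannotated row over it held 1. A count of 0 allows up to 3 counts, or 0.252 to 0.291 CPM in a library, and this limit covers counting error only.

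For Cyp1a1 a count of 0 cannot be read as absence of the transcript. Of 14871 protein-coding genes with no unannotated row on their strand, 24.4% were at 0 in every library, whereas of the 6213 genes covered to at least 95% by unannotated rows, 53.8% were. Where the spans of the gene and the unannotated row were alike, both rows were at 0 for 376 of 3102 genes (12.1%). No source used here says how reads that belong to both rows were treated. The same limit bears on Arnt, on Dyrk1a and on the AHR chaperone Hsp90ab1. Hsp90ab1, an abundant mRNA in most cells, stood at a mean of 1.42 CPM in si-NC even with its unannotated row added. Cyp1a2 has no unannotated row on its strand, so this limit does not bear on its single count.

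The wider pathway was read from lists of genes written from general knowledge, with earlier results of these data known. Their calls are therefore a description and no independent test. The counts called in each list stand beside 8.03% called higher and 7.19% called lower over all features tested. Of 14 genes for the chaperones and coactivators of AHR, 4 could be tested, and 9 of the 10 others were covered to at least 95% by an unannotated row. Arnt2, a paralogue of Arnt that can also pair with AHR, was the only one called, and it had been seen as higher in these data when the list was written. Arnt2 rose from 67.9 ± 1.73 to 80.5 ± 4.43 CPM (SD, n = 3), a log2 fold change of 0.25 (SE 0.0605, adjusted p = 0.00722), with separated groups. Its call was lost without si-DYRK1A replicate 2 or 3 and under limma. Ncoa2 and Ep300, coactivators, were at log2 fold changes of -0.12 and -0.12 and were not called, nor was Ddb1, part of a ubiquitin ligase with AHR, at -0.01. Unannotated rows made Ncoa3 and Src measurable as well, with summed log2 fold changes of -0.18 (adjusted p = 0.178) and -0.13 (adjusted p = 0.578). The same held for the chaperones Ptges3 and Hsp90ab1, at few CPM, with 0.31 (adjusted p = 0.541) and 0.27 (adjusted p = 0.653).

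Of 24 further genes reported as AHR targets in other tissues, 15 were tested, and 4 were called higher and 3 lower. Over all features tested, the shares were 8.03% higher and 7.19% lower. Scin, an actin-severing protein, rose from 13.4 to 18.9 CPM (log2 fold change 0.49, adjusted p = 0.00377). Ptgs2, the inducible cyclooxygenase, rose from 75.5 to 105.7 CPM (0.48, adjusted p = 1.35e-05). Vav3, a guanine nucleotide exchange factor, and Xdh, xanthine dehydrogenase, rose by 0.35 (adjusted p = 0.00948) and 0.27 (adjusted p = 0.00174) on the log2 scale. In all 4 genes the groups were separated, and DESeq2 did not call Vav3.

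In the other direction, Fgf21, a metabolic hormone, fell from 3.76 ± 0.596 to 1.46 ± 0.278 CPM (SD, n = 3), a log2 fold change of -1.36 (adjusted p = 0.00155). Abcg2, a drug efflux pump, fell from 12.2 to 8.50 CPM (-0.51, adjusted p = 0.0172), a call lost under DESeq2, limma and 4 of the 6 left-out libraries. Slc7a5, an amino acid transporter that was named after its values were seen, fell from 565 to 472 CPM (-0.26, adjusted p = 0.000289). The most abundant target that was not called, Pmaip1, was at 0.05 (adjusted p = 0.595). The median log2 fold change of the 15 genes was 0.21, beside 0.002 over all features, with calls in both directions.

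Few of the enzymes that make AHR ligands from tryptophan could be measured. Of 12 genes, 2 were tested, and Aadat, a kynurenine aminotransferase, fell from 23.8 to 17.0 CPM (log2 fold change -0.48, adjusted p = 0.00302). Afmid, which releases kynurenine, was at -0.43 (adjusted p = 0.109). With unannotated rows summed, 5 were tested, and Kyat3, another kynurenine aminotransferase, rose from 1.39 to 3.01 CPM (1.10, adjusted p = 0.0134). That sum was chosen after the data were seen.

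AHR shares ARNT with other bHLH-PAS factors, and of 6 tested genes of this family 2 were called higher. Besides Arnt2, Npas4, a factor known from active neurons, rose from 1.15 to 2.41 CPM (log2 fold change 1.06, SE 0.344, adjusted p = 0.0398), a level of few reads, and its call was lost under limma and 5 of the 6 left-out libraries, while DESeq2 gave it no adjusted p. Npas2 was at -0.26 (adjusted p = 0.309). Of 15 tested targets of the hypoxia factors, which also use ARNT, 3 were called higher and 2 lower. Egln3, a prolyl hydroxylase, rose from 128.8 to 202 CPM (0.65, adjusted p = 7.48e-09), and Slc2a1, a glucose transporter, rose by 0.37 (adjusted p = 4.31e-06). Car9, a carbonic anhydrase, was called at 0.52 (adjusted p = 0.0253), a call lost under DESeq2 and 4 of the 6 left-out libraries. The glycolytic genes Aldoa and Ldha fell by 0.15 and 0.12 on the log2 scale (adjusted p = 0.0152 and 0.0341), and Eno1 was at -0.05 (adjusted p = 0.432). The call of Ldha was lost under the replicate block, limma on log2(FPKM + 1) and 5 of the 6 left-out libraries, and that of Aldoa under limma at both pseudocounts and without si-DYRK1A replicate 1 or 2.

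Since Nqo1 is also an NRF2 target, other targets of NRF2 were read beside it, and the difference between Nqo1 and that list was not tested. Of the 12 genes in the edgeR fit, 0 were called higher and 3 lower, with 1 higher and 6 lower at an unadjusted p below 0.05. DESeq2 and limma also called 0 higher, and edgeR without si-NC replicate 2 called 1 (Tkt). Osgin1 fell from 6.09 ± 0.157 to 2.92 ± 0.0851 CPM (SD, n = 3), a log2 fold change of -1.06 (adjusted p = 0.000759). Slc7a11, the cystine transporter, fell by 0.49 (adjusted p = 5.24e-05), and Txnrd1, thioredoxin reductase, fell by 0.24 (adjusted p = 0.00046). Ftl1, a ferritin light chain with near-identical copies that can share its reads, was at -0.92 (adjusted p = 0.068) and was called lower under DESeq2, the replicate block, no filter and 2 left-out libraries. Tkt, the most abundant of those not called, was at 0.11 (adjusted p = 0.109), and the median of the list was -0.12.

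Of 14 tested enzymes that work beside or after the P450s, 1 was called higher and 5 lower. Ephx1, which opens epoxides made by P450s, rose from 152.8 ± 1.36 to 209.4 ± 1.61 CPM (SD, n = 3), a log2 fold change of 0.45 (adjusted p = 2.9e-07). The glutathione transferases Gstt1 and Gstm1 fell by 0.70 (adjusted p = 0.000903) and 0.33 (adjusted p = 0.0266), and Gstp1 was at -0.12 (adjusted p = 0.0802). The call of Gstm1 was lost under DESeq2, limma at both pseudocounts and 3 of the 6 left-out libraries. The aldehyde dehydrogenases Aldh3a2 and Aldh1a3 fell by 0.25 (adjusted p = 0.000618) and 0.24 (adjusted p = 0.00628). The call of Aldh1a3 was lost without si-DYRK1A replicate 2. Cyb5r3, a cytochrome b5 reductase, fell by 0.19 (adjusted p = 0.00467). The median of the list was -0.08.

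**Figure D5:**
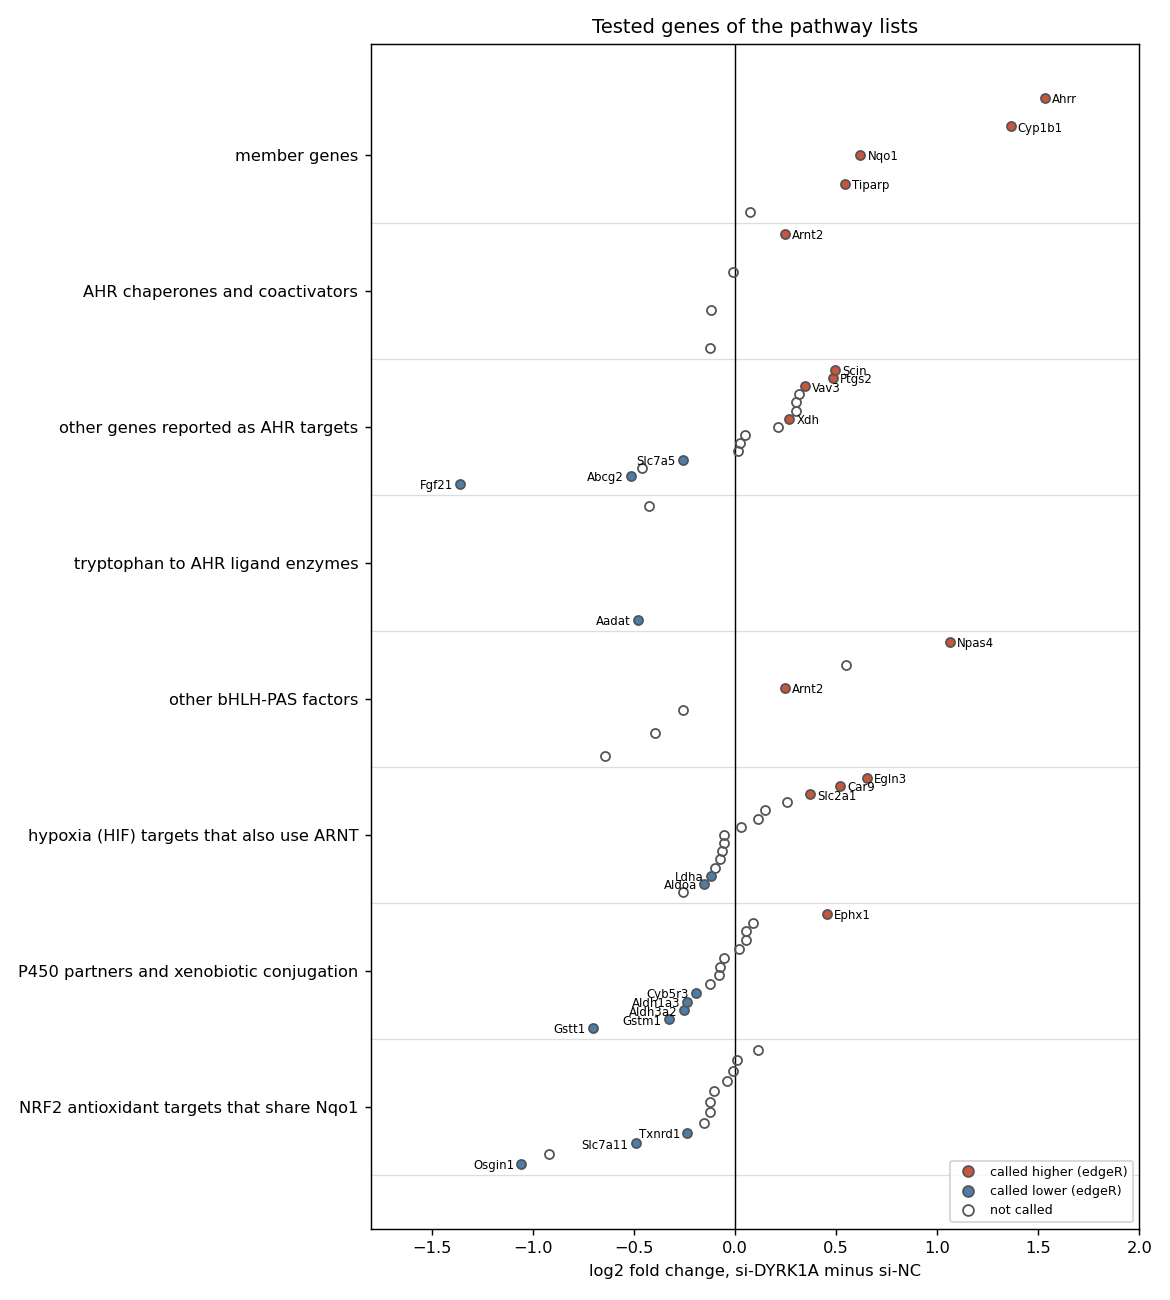
Log2 fold change (si-DYRK1A minus si-NC, horizontal axis) of each tested gene in the 9 members and in the 7 wider lists. Filled points were called by edgeR, red where higher and blue where lower, and open points were not called. The 5 tested members, which were chosen for this difference, lie at 0.07 to 1.53. The wider lists hold points on both sides of 0, except the 2 tryptophan enzymes, which both lie below it. Within a list, height only orders the points.

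The annotated genes whose pattern over the 6 libraries was most like that of Cyp1b1 were named by their root mean square distance in log2 CPM, relative to the si-NC mean, among 8453 candidates. They were Grem1 (0.117), a secreted BMP antagonist, Cpa1 (0.118), a carboxypeptidase, Nipal4 (0.149), LOC102553018 (0.149) and Epyc (0.153), a proteoglycan. For Ahrr they were Gdf10 (0.146), a TGF-beta family ligand, Grem1 (0.174), Epyc (0.193), Bco1 (0.193), which cleaves carotene, and Cpa1 (0.205). Grem1 stood at 156 to 171 CPM in si-NC and at 414 to 451 CPM in the si-DYRK1A libraries. Cpa1 shared the high si-NC replicate 3 of Cyp1b1, with 2.43 CPM beside 1.44 and 1.35 CPM, a level of few reads. The distance that picked Cpa1 includes this library, so the likeness is no separate result.

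Cells of other types can carry the members' transcripts, and in bulk RNA fewer cells of a type and less RNA per cell cannot be told apart. The sums below use annotated rows only, so a marker at 0 may have its reads in an unannotated row. Over all features tested, 8.03% were called higher and 7.19% lower. The summed level of 9 cardiomyocyte markers in the table was 18960 to 19670 CPM in si-NC and 22220 to 23170 CPM in the si-DYRK1A libraries, with the rows of Tnni3, Myh6 and Myh7 at 0, and 4 of 5 tested were called higher. The cardiac muscle genes Actc1 and Nppa stood at means of 9976 and 7557 CPM in si-NC. Markers of fibroblasts, with the annotated rows of Pdgfra and Ddr2 at 0, summed to 21530 to 26240 CPM and to 20370 to 21110 CPM. However, 2 of 6 tested fibroblast genes were called higher and 0 lower by edgeR (3 and 1 at an unadjusted p below 0.05, and 2 and 1 by DESeq2). Those called higher were Lum, from 259.7 to 389.6 CPM (adjusted p = 1.21e-08), and Postn, from 6.54 to 13.97 CPM (adjusted p = 2.39e-05). Col1a1, the most abundant fibroblast gene tested, fell from 14340 to 11110 CPM and was not called (adjusted p = 0.0869). It makes up much of the sum, while 5 of the 6 tested genes had a positive log2 fold change. With unannotated rows added, 8 were tested, 3 called higher and 0 lower. Ddr2 then stood at means of 538.5 CPM in si-NC and 496.5 CPM in si-DYRK1A (adjusted p = 0.0635). Endothelial markers, with Flt1 at 0, summed to 169.7 to 188.5 CPM and to 137.8 to 143.7 CPM, and 3 of 6 tested were called lower. Smooth muscle and pericyte markers, with Myh11, Acta2 and Notch3 at 0, summed to 689 to 722 CPM and to 710.0 to 729 CPM, and 0 of 3 tested were called by edgeR (1 lower at an unadjusted p below 0.05). With its unannotated row added, the pericyte gene Rgs5 rose from 44.8 to 66.1 CPM (adjusted p = 1.16e-05). Macrophage markers, with Cd68 at 0, summed to 131 to 144 CPM and to 128 to 144 CPM, and 1 of 6 tested was called higher (Cd163, from 4.54 to 8.35 CPM, adjusted p = 0.00415). At an unadjusted p below 0.05, 1 was higher and 2 were lower. The lower ones were Adgre1 and Ptprc, at log2 fold changes of -0.54 and -0.21. The part of these cell types in the levels of Cyp1b1, Ahrr, Tiparp and Nqo1 was not tested.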

How the data were processed

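The authors deposited a table of counts per gene and unannotated transcript and a table of FPKM values for 6 libraries. Per the study's methods, reads were mapped to Rnor_6.0 with HISAT2, whereas the submitters' processing notes list Bowtie 0.12.2 and a mouse build (mm8). The library kit also differs, TruSeq in the labels and NEBNext in the methods. The counting tool, its annotation and its strand setting are not named in any source used here. The deposited FPKM values equal the deposited counts over the length of the gene, times 1 constant for each library. Positions of genes are those of the files.

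Counts were fitted with edgeR 4.0.16 under R 4.3.3 (quasi-likelihood, TMM, robust), after filterByExpr, which asks for about 10 counts in 3 or more libraries and 15 or more in all, comparing si-DYRK1A replicates 1 to 3 with si-NC replicates 1 to 3. P-values are two-sided, adjusted by Benjamini-Hochberg over all 15513 features tested, and called below 0.05. The fit was tested on simulated data. Unannotated rows were joined to genes by overlap of their coordinates on the same strand. Rows that also overlapped another annotated gene on that strand were left out of the sums. The coverage of protein-coding genes by unannotated rows was computed with GenomicRanges 1.54.1. The members and lists were chosen with earlier results of these data known. Named were the 9 members and unannotated rows over them, Dyrk1a, at most 6 called genes of each list by absolute log2 fold change with the most abundant gene not called, and the 5 nearest genes of Cyp1b1 and of Ahrr above a mean log2 CPM of 1 (pseudocount 0.5). Ncoa2, Ep300, Ncoa3, Src, Ptges3, Hsp90ab1, Kyat3, Slc7a5, Ftl1 and the cell type markers were added to these.

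Alternatives were RLE scaling, library size only, no filter, a replicate block, 1 library left out at a time, DESeq2 1.42.0, limma 3.58.1 on log2(FPKM + 1) and log2(FPKM + 0.1) for features with FPKM of at least 0.5 in 3 libraries, and members summed with their unannotated rows. The same sum for every list was added after the data were seen. The promoter search was repeated on the bases before the start. Some single genes of the lists are left out of the text.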

Additional observations from a re-analysis of the deposited data

How the results depend on the processing

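The number of members called stayed between 3 and 4 when a library was left out and was 4 under every other setting. The log2 fold change of Ahrr ranged from 1.29 to 1.59 over all settings, that of Cyp1b1 from 1.27 to 1.50, that of Tiparp from 0.52 to 0.57 and that of Nqo1 from 0.55 to 0.76. That of the unannotated row over Ahr ranged from 0.29 to 0.67, and the fit no longer counted it as called with library size only, the replicate block, DESeq2, limma or 4 of the 6 left-out libraries. Over all features tested, 2360 were called, 2269 with the replicate block, and 1614 to 2210 when a library was left out. DESeq2 called 1575 features, and limma called 1199 on log2(FPKM + 1) and 1180 on log2(FPKM + 0.1). The replicate numbers did not pair the samples, since same-numbered deviations from the group means correlated at 0.06, -0.02 and -0.01. The block changed the hypoxia targets from 5 to 4 called and the NRF2 list from 3 to 4, and ended the call of Ldha. Among the lists, leaving out a library gave 0 to 1 calls for chaperones and coactivators, 0 to 1 for bHLH-PAS factors, 2 to 6 for hypoxia targets and 3 to 5 for NRF2 targets. Limma called 0 chaperones and coactivators and 0 bHLH-PAS factors at both pseudocounts, and 3 hypoxia targets on log2(FPKM + 1). DESeq2 called 1 bHLH-PAS factor and gave Npas4 no adjusted p, and with unannotated rows summed 2 tryptophan enzymes were called. Of these list changes the cause was not tested. The log2 fold change of Ddb1, -0.01, turned to 0.0012 without si-NC replicate 2, within a range of -0.0384 to 0.0012 over left-out libraries. Genes of the lists that lost a call under at least 1 setting were Abcg2, Aldh1a3, Aldoa, Arnt2, Car9, Gstm1, Ldha, Npas4 and Vav3, and those that gained one included Cdkn1b and Kyat3 (unannotated rows summed), Ereg, Ftl1, Gstp1, Higd1a, Stc2 and Tkt. Of RefSeq promoters, 25.9% held a core when only bases before the start were searched, and 29.7% in the whole window. Depth limits the reading of Npas4, Cpa1, Kyat3 and Fgf21, at a few CPM, and of the members at or near 0.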
